A study of Mus musculus with 4 samples.

Results

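The expression of 10 genes of the NF-kB system was followed across the immune cells of mouse skin wounds: the subunit genes Nfkb1, Nfkb2, Rel and Relb, the IkB family genes Nfkbia, Nfkbie and Nfkbiz, and the induced genes Tnfaip3, Tnfaip2 and Zfp36. They were chosen by symbol, and all 10 were found among the 31053 genes of the count tables. The study excised 3 mm punches of skin from C57BL6/J mice and sorted live CD45+ cells, which are cells of the blood lineage, from the healing wounds on the first and the fifth day (1 and 5 dpw, days post wounding). Wild-type mice (Angptl4+/+) were compared with mice in which Angptl4, a secreted inhibitor of lipoprotein lipase, was deleted in every tissue (Angptl4-/-), to learn how the loss of Angptl4 alters the immune cells of the wound. Each combination of genotype and day gave 1 droplet library, so the 4 groups were Angptl4+/+ at 1 dpw, Angptl4+/+ at 5 dpw, Angptl4-/- at 1 dpw and Angptl4-/- at 5 dpw. The mice were young adult males, the labels name no treatment besides wounding, and the number of mice behind a library is not given in the sources used here. With 1 library per group there were no replicates and no test of a difference between groups could be made, and genotype and day cannot be told apart from the library. Where 4 values are given together, they follow the order of the groups just named.

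NF-kB is a family of dimeric transcription factors that cells hold in the cytoplasm bound to IkB proteins. Bacterial products, TNF and IL-1 activate a kinase that marks IkB for destruction, which frees the dimers to enter the nucleus and switch on genes of inflammation, among them the genes of their own inhibitors. The classical pathway uses mainly dimers of RelA, c-Rel and the p50 product of Nfkb1, and a slower alternative pathway uses RelB with the p52 product of Nfkb2. Neutrophils and macrophages of a fresh wound are among the cells in which this system is most used.

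The kB consensus, the short DNA motif that these dimers bind, stands close to the start of several of the inhibitor genes, and 4 such stretches are shown because they belong to genes whose levels are followed here. RefSeq start windows (GRCm38.p6) were at hand for 7 of the 10 genes and numbered 10. The 250 bases before each start were searched on both strands, and 5 of the 7 genes held a match in at least 1 window (Nfkb2, Rel, Nfkbia, Nfkbie and Tnfaip3), while the windows of Tnfaip2 and Zfp36 held none. Of 32851 such windows of all genes, 1281 (3.90%) held a match, and of the 10 windows of these genes 7 did. A match is a description of the letters and not a measured binding site. Each stretch is written 5′ to 3′ on the strand of its gene, with the matching bases in capitals.
Rel, chr11:23771021-23771091, minus strand: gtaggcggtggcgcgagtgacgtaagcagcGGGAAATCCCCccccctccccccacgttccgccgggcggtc
Nfkbia, chr12:55492648-55492706, minus strand: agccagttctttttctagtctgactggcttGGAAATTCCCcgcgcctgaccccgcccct
Nfkbie, chr17:45555564-45555633, plus strand: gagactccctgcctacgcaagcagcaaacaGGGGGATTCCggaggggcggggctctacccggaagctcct
Tnfaip3, chr10:19015411-19015452, minus strand: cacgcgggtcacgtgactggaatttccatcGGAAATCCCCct
The capitals of Rel are 2 overlapping matches that begin 92 and 91 bases before the start. The match of Nfkbia begins 29 bases, that of Nfkbie 106 bases and the one shown of Tnfaip3 12 bases before the start. Another match of Tnfaip3 in the same window, not shown, begins 125 bases before the start. All these distances are to the RefSeq start of the window. For Tnfaip3 that start differs from the GENCODE vM21 one, and its matches lie inside the GENCODE gene span (chr10:19000910-19015657).

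Libraries held between 4772 and 5419 barcodes and from 26981596 to 32962595 UMIs, and 19827 of 20069 barcodes passed the filter. Median UMIs per cell were 4975.5 and 4814.5 in the 1 dpw libraries and 3873 and 3735.5 in the 5 dpw libraries. Any pair of libraries shared between 4 and 15 cell barcodes. Angptl4 had 47 and 78 UMIs in the Angptl4+/+ libraries at 1 and 5 dpw and 0 in both Angptl4-/- libraries. Clusters were named from marker lists as neutrophil-like (3887, 2691, 3696 and 3499 cells), monocyte-like (154, 143, 129 and 135), macrophage-like (1155, 1560, 849 and 652), dendritic cell-like (109, 304, 86 and 205) and NK cell/T cell-like (36, 226, 36 and 220). A further B cell-like cluster reached 25 cells only in the Angptl4-/- library at 5 dpw, with 27. A level is a gene's summed UMIs in a class divided by all UMIs there and scaled to 1000000 (CPM). Brackets give a 95% interval that covers counting error only.

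Among the 5 classes with at least 25 cells in every library, all 4 subunit genes stood highest in dendritic cell-like cells. Nfkbia, Nfkbiz, Tnfaip3, Tnfaip2 and Zfp36 stood highest in neutrophil-like cells by their median over the 4 libraries. Nfkbie was highest in dendritic cell-like cells, with neutrophil-like and macrophage-like cells next to it. The plot of levels by class shows this division.

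**Figure D1:**
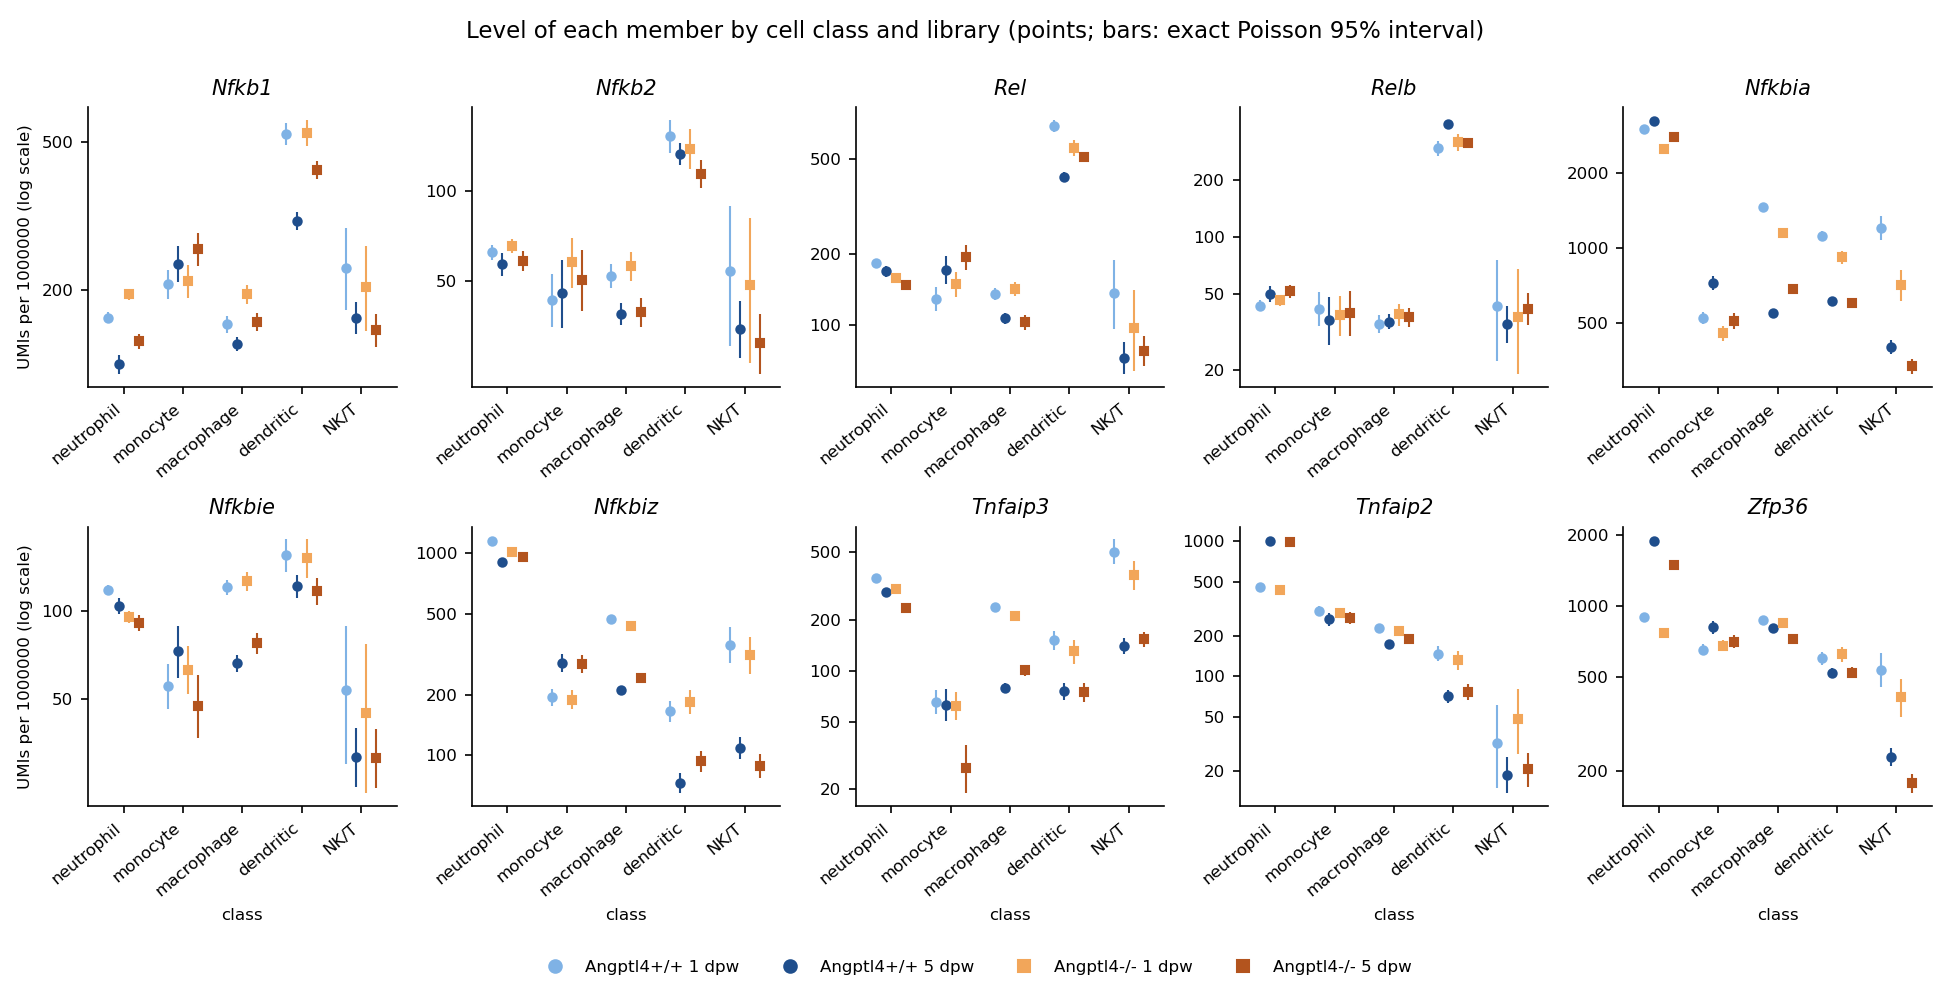
Level of each of the 10 genes (CPM, log axis) in 5 classes of wound immune cells, with 1 point per library and a 95% counting interval as the bar. The subunit genes reach their highest points in dendritic cell-like cells, and Nfkbia, Nfkbiz, Tnfaip2 and Zfp36 reach theirs in neutrophil-like cells.

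Nfkb1 (chr3:135584655-135691547), which encodes the p105 precursor of p50, was at 526, 307, 531 and 421 CPM in dendritic cell-like cells. The dendritic cell-like level was above the monocyte-like level beyond the counting intervals in all 4 libraries, and medians over libraries were 474 and 224 CPM. Below them came NK cell/T cell-like cells with a median of 186 CPM, macrophage-like cells with 163 CPM and neutrophil-like cells with 157 CPM. Each of these lower neighbours was separated from the next beyond the intervals in only 2 of 4 libraries, so their order did not hold throughout. Nfkb2 (chr19:46304320-46312385), the gene of the p100 precursor of p52, had a median of 136 CPM in dendritic cell-like and 60.3 CPM in neutrophil-like cells. These 2 classes were apart beyond the intervals in 4 of 4 libraries, and the median was 48.0 CPM in monocyte-like, 45.5 CPM in macrophage-like and 41.5 CPM in NK cell/T cell-like cells. Neutrophil-like and monocyte-like cells were apart beyond the intervals in 1 library, and the lower neighbours in none.

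Rel (chr11:23736847-23770970), the gene of c-Rel, was at 689, 421, 558 and 511 CPM in dendritic cell-like cells. Neutrophil-like cells, next in order, had 183, 168, 157 and 147 CPM, so the dendritic cell-like level was higher beyond the intervals in every library. Monocyte-like cells had a median of 159.6 CPM and were above neutrophil-like cells in 1 library and below them in 1. The 27 B cell-like cells, left out of this order, had 527 CPM of Rel, a gene long studied in lymphocytes. Dendritic cell-like cells of the same library had 511 CPM. Relb (chr7:19606217-19629438), the subunit of the alternative pathway, showed the widest gap of the subunits between the first class and the next. Dendritic cell-like cells had 293, 392.3, 315 and 312 CPM, and neutrophil-like cells had 43.5, 50.2, 46.5 and 51.6 CPM. The other classes held medians of 40.04 CPM in NK cell/T cell-like, 39.3 CPM in monocyte-like and 36.8 CPM in macrophage-like cells, and no neighbouring pair of these 3 was apart beyond the intervals in any library. After each cell was thinned to 1000 UMIs, Relb was seen in 19.3% to 29.3% of dendritic cell-like cells and in 4.2% to 5.0% of neutrophil-like cells over the libraries. Without thinning the ranges were 69.8% to 78.0% and 13.5% to 18.9%, at median depths of 13000 to 14077 and 3218 to 4683 UMIs per cell.

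Nfkbia (chr12:55489410-55492647) encodes IkB alpha, the inhibitor that NF-kB induces first and that ends a pulse of its activity. Neutrophil-like cells had 2992, 3212, 2488 and 2783 CPM of it, and macrophage-like cells had 1464, 552, 1152 and 688 CPM. The log2 ratio of macrophage-like to neutrophil-like cells was -1.03, -2.54, -1.11 and -2.02, beyond the intervals in every library. Medians of 766 CPM in dendritic cell-like, 556 CPM in NK cell/T cell-like and 518 CPM in monocyte-like cells followed. Macrophage-like cells were above dendritic cell-like cells in 3 libraries and below them in 1. The order of the last pair did not hold either, since NK cell/T cell-like cells were above monocyte-like cells in 2 libraries and below them in 2. Nfkbie (chr17:45555703-45563169), the gene of IkB epsilon, had medians of 136 CPM in dendritic cell-like, 99.5 CPM in neutrophil-like and 99.0 CPM in macrophage-like cells. Macrophage-like cells were below neutrophil-like cells in 2 libraries and above them in 1. Nfkbiz (chr16:55811375-55838899) encodes IkB zeta, a nuclear IkB protein that NF-kB needs to switch on a second set of genes such as Il6. Its level was 1155, 902, 1013 and 957 CPM in neutrophil-like and 473, 211, 437 and 241 CPM in macrophage-like cells. Neutrophil-like cells were higher in every library, and dendritic cell-like cells were the lowest class with a median of 129 CPM.

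Tnfaip3 (chr10:19000910-19015657) encodes A20, an enzyme that removes the ubiquitin chains on which the pathway depends. It was at 349.5, 291, 303 and 235 CPM in neutrophil-like cells, and at 503 CPM in Angptl4+/+ NK cell/T cell-like cells at 1 dpw, where the other 3 libraries had 141, 367 and 154 CPM. These classes changed order with the day: NK cell/T cell-like cells were higher at 1 dpw in Angptl4+/+ wounds, the class holding only 36 cells in each 1 dpw library, and neutrophil-like cells were higher in both 5 dpw libraries. At 5 dpw the NK cell/T cell-like cells were divided at a finer resolution into a cluster led by Cxcr6 and Cd3g, of T cell genes, and a cluster whose leading genes held the NK cell genes Gzma, Prf1 and Ncr1 beside cell cycle genes such as Top2a and Birc5. The T cell-gene cluster had 208 and 240.2 CPM of Tnfaip3 and the cluster of NK cell and cell cycle genes 107 and 106 CPM in Angptl4+/+ and Angptl4-/- wounds. Tnfaip2 (chr12:111442469-111455018), a TNF-induced gene whose product takes part in forming membrane tubes between cells, had the same class order in all 4 libraries. From the top it ran from neutrophil-like (median 719 CPM) to monocyte-like (282 CPM), macrophage-like (203 CPM), dendritic cell-like (104 CPM) and NK cell/T cell-like cells (26.5 CPM), with each neighbouring pair apart beyond the intervals in 4 of 4 libraries. Zfp36 (chr7:28376784-28380253) encodes tristetraprolin, which binds AU-rich elements in the mRNAs of Tnf and other cytokines and speeds their decay. Medians of Zfp36 were 1199 CPM in neutrophil-like, 829.6 CPM in macrophage-like, 695 CPM in monocyte-like, 565 CPM in dendritic cell-like and 321 CPM in NK cell/T cell-like cells, but neutrophil-like cells were above macrophage-like cells in only 2 of 4 libraries and below them in 1.

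Neutrophil-like cells fell into 6 clusters, made without any of the 10 genes among the variable genes. They were led by Nlrp12 and Ly6g (3704 cells), by Il1a and Ccl3 (3613 cells), by Csf1 (3352 cells), by the interferon-induced genes Ifit3b and Isg15 (1787 cells), by Stfa2 and Stfa3 (782 cells) and by Acot1 and Egr3 (535 cells). Nfkbia was lowest in the Nlrp12 and Ly6g cluster, with 1365, 1619.8, 1036 and 1476 CPM. It was at 4235, 5033, 3752 and 3940.2 CPM in the Il1a and Ccl3 cluster and at 4122, 3798, 3463 and 3312 CPM in the Csf1 cluster. The difference between these clusters was thus larger than any difference in Nfkbia between the genotypes or days of the whole class. Tnfaip3 likewise had 142, 156, 117 and 126 CPM in the Nlrp12 and Ly6g cluster and 558, 399, 509 and 366 CPM in the Csf1 cluster. Relb had 20.4, 22.3, 17.2 and 28.7 CPM in the former and 81.2, 78.3, 91.0 and 78.5 CPM in the latter. For all 3 genes the ranges of these clusters over the 4 libraries did not overlap. How many of all genes were apart in this way was not counted.

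The neutrophil-like cells were also divided into a subset with more and a subset with less Cxcr2, the chemokine receptor of circulating neutrophils. Against the Cxcr2-high subset, the Cxcr2-low subset had higher levels of 7 of the 10 genes beyond the counting intervals in all 4 libraries. The share of all genes higher in this way was not counted, so the count does not set these genes apart from others. Log2 ratios ran from 1.06 to 1.47 for Tnfaip3, from 0.98 to 1.64 for Relb, from 0.78 to 1.34 for Nfkb2, from 0.67 to 1.11 for Nfkbia, from 0.60 to 0.89 for Rel, from 0.44 to 0.77 for Nfkbie and from 0.15 to 0.75 for Nfkb1. Zfp36, Tnfaip2 and Nfkbiz did not keep one sign. Nfkbiz had 0.50, 0.04, 0.53 and -0.07 in the 4 libraries. The ratio of Tnfaip2 was 0.56 and 0.86 at 1 dpw and -0.60 and -0.66 at 5 dpw in Angptl4+/+ and Angptl4-/- wounds, and that of Zfp36 was 0.00, -0.81, 0.24 and -0.60 in the 4 libraries.

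**Figure D2:**
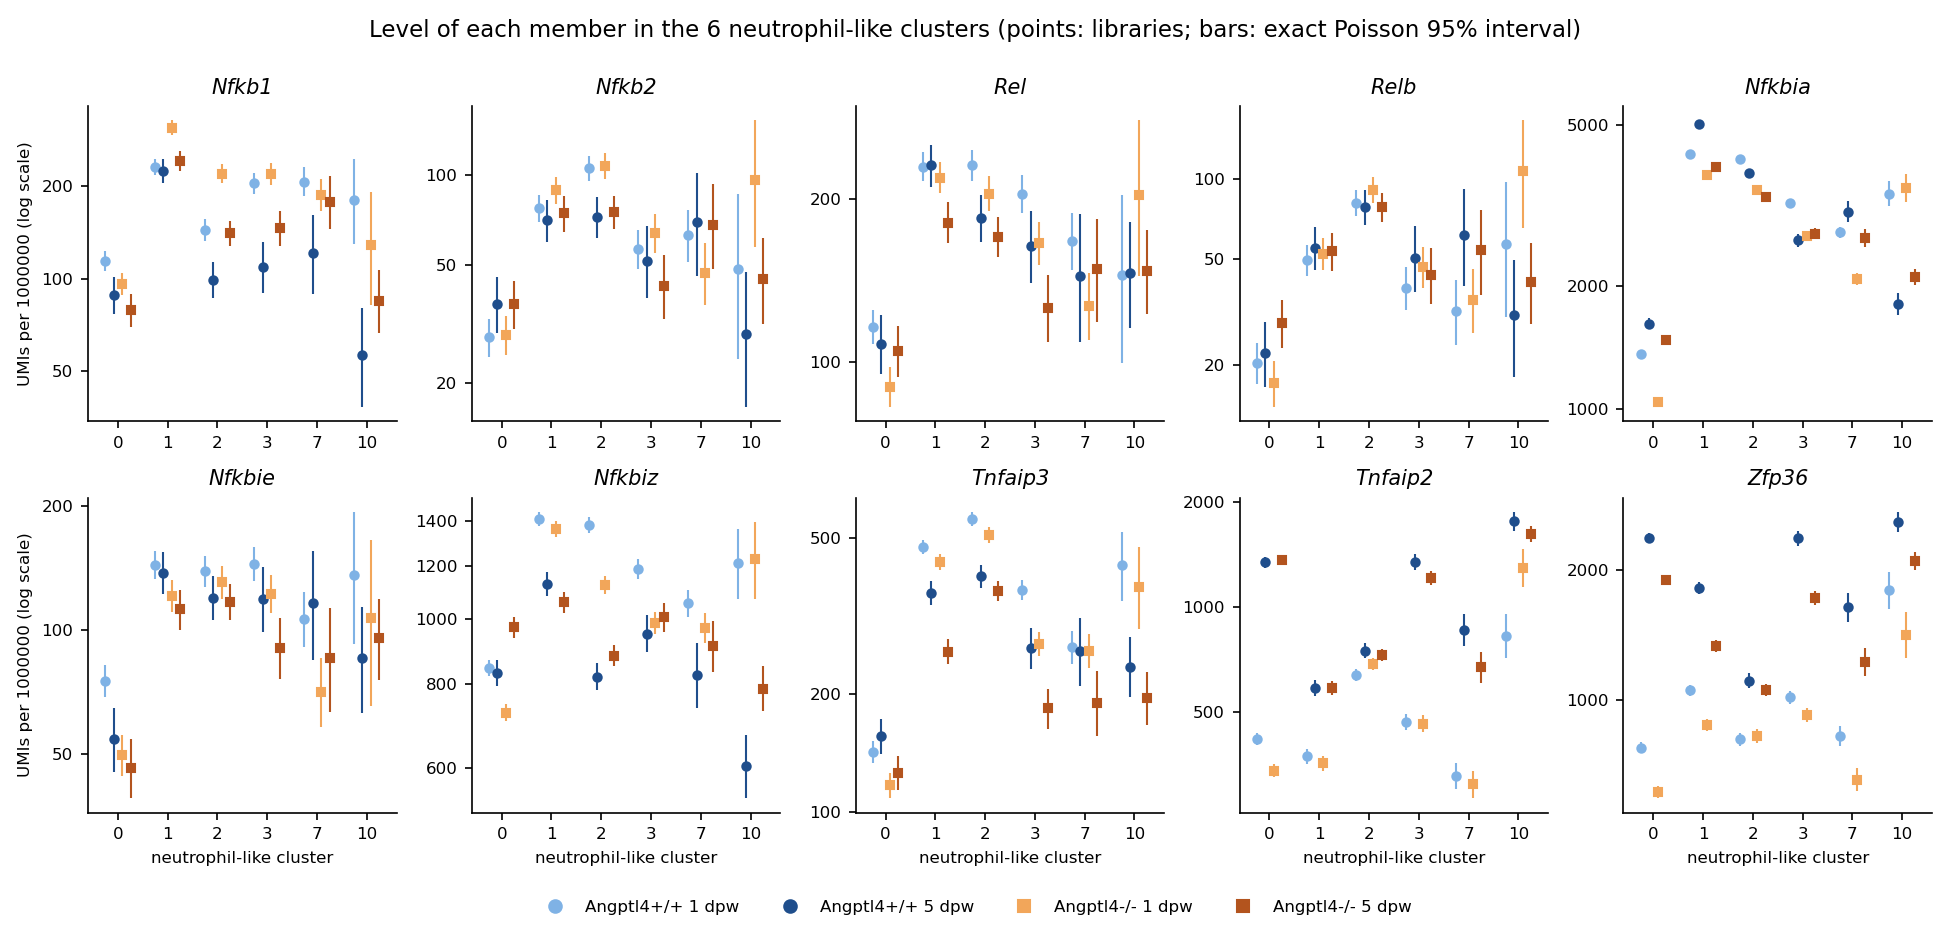
Level of the 10 genes (CPM, log axis) in the 6 clusters of neutrophil-like cells, led by Nlrp12 (0), Il1a (1), Csf1 (2), Ifit3b (3), Stfa2 (7) and Acot1 (10), with 1 point per library and a 95% counting interval as the bar. Nfkbia, Tnfaip3 and Relb sit lowest in the cluster led by Nlrp12 and Ly6g in every library, while Tnfaip2 and Zfp36 sit higher at 5 dpw than at 1 dpw in each cluster.

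From 1 to 5 dpw, Tnfaip2 and Zfp36 were about 2-fold higher in neutrophil-like cells of both genotypes. Tnfaip2 was at 455 CPM [446, 464] and then 1009.8 CPM [989, 1031] in Angptl4+/+ wounds, and at 436 and 983 CPM in Angptl4-/- wounds. Zfp36 was at 898 and 1892 CPM in Angptl4+/+ and at 771 and 1499 CPM in Angptl4-/- wounds. For each gene both 5 dpw libraries stood above both 1 dpw libraries, an order that was not counted over all genes. The log2 ratio of 5 to 1 dpw was 1.15 [1.11, 1.19] in Angptl4+/+ and 1.17 [1.13, 1.21] in Angptl4-/- wounds for Tnfaip2. For Zfp36 it was 1.08 [1.04, 1.11] and 0.96 [0.93, 0.99]. In thinned cells, the share with a UMI of Tnfaip2 was 31.3%, 48.2%, 31.6% and 47.4% (67.0%, 69.6%, 65.6% and 72.0% without thinning), against 0.9% to 2.8% of thinned NK cell/T cell-like cells (6.2% to 16.7% without thinning).

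These values lie on a scale that moved as a whole, because the median log2 ratio over all genes tested in neutrophil-like cells was 0.65 between the days in Angptl4+/+ and 0.68 in Angptl4-/- wounds. A gene was called when it was at least 1.5-fold apart with at least 100 UMIs over both libraries. In Angptl4+/+ wounds 2 of the 10 genes were called higher at 5 dpw, where 53.8% of 6598 genes were, and 0 were called lower, where 4.49% were. In Angptl4-/- wounds 2 were called higher, where 55.6% of 6667 genes were, and 0 lower, where 4.18% were. Relative to the median of all genes, Tnfaip2 was 0.50 and 0.49 higher and Zfp36 0.43 and 0.28 higher in Angptl4+/+ and Angptl4-/- wounds, which is under 1.5-fold. On that centred scale the other 8 genes were below 0 in both genotypes, from -1.07 for Nfkb1 to -0.44 for Relb in Angptl4+/+ wounds. Of these, 6 (Nfkb1, Nfkb2, Rel, Nfkbie, Nfkbiz and Tnfaip3) were past 1.5-fold lower in each genotype. The share of all genes past this centred cut was not counted, and the shares above are for the scale as measured. Rel, the least lowered of the 6 in Angptl4+/+ wounds, stood at percentile 12.9 of all genes tested. In Angptl4-/- wounds Nfkbie was the least lowered, at percentile 13.4. The summed level of 12 neutrophil marker genes, S100a8 and S100a9 among them, was 205678 and 222374 CPM at 1 dpw and 113599 and 114698 CPM at 5 dpw, and its part in the shift of all genes was not tested. Macrophage marker genes, 15 in number, summed to 7492, 4654, 8734 and 3963 CPM in neutrophil-like cells. In macrophage-like cells they summed to 22215, 22531, 19630 and 19666 CPM. Their part in the neutrophil-like levels and in the ratios between days and genotypes was not tested.

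As measured, the subunit and IkB genes of neutrophil-like cells moved little between the days. Nfkb1 was at 169 and 127 CPM at 1 and 5 dpw in Angptl4+/+ wounds and at 195 and 146 CPM in Angptl4-/- wounds, a log2 ratio of -0.42 [-0.52, -0.32] and -0.42 [-0.50, -0.34]. Tnfaip3 had a ratio of -0.26 [-0.33, -0.20] and -0.37 [-0.43, -0.30]. Nfkbia was slightly higher at 5 dpw, with 0.10 [0.08, 0.12] and 0.16 [0.14, 0.18], and Nfkbiz was lower in Angptl4+/+ wounds at -0.36 [-0.39, -0.32] and less so in Angptl4-/- wounds at -0.08 [-0.12, -0.05]. Within the clusters, the ratio of Tnfaip2 was above 0 beyond its interval in 6 of 6 clusters of each genotype (from 0.23 up to 1.69 for Angptl4+/+ wounds, from 0.09 up to 2.01 for Angptl4-/- wounds), as was that of Zfp36 (0.45 to 1.61 and 0.35 to 1.63). The widest step was in the Nlrp12 and Ly6g cluster, where Tnfaip2 was at 417, 1344, 338 and 1365 CPM and Zfp36 at 775, 2366, 611 and 1888 CPM. In the Il1a and Ccl3 cluster Tnfaip2 had 372, 585, 355 and 585 CPM. These clusters were made after integration, which aligns the libraries with each other. Without it, a neutrophil-like cluster led by Prok2 and Ly6g held 1591, 24, 1457 and 39 cells. Another, led by Nlrp12, held 92, 1238, 49 and 1570 cells, so these cells lay apart largely by day. How far like cells were compared between the days within a cluster was not tested.

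Immediate early and heat shock genes, which dissociation of tissue at body temperature is known to induce, were measured in the same cells. The summed level of 14 such genes, none of them among the 10, reached 15303, 28905, 14359 and 25980 CPM. Of the 14, 13 were called higher at 5 dpw in Angptl4+/+ wounds, as were 9 in Angptl4-/- wounds, with a median log2 ratio of 0.85 in both, beside 53.8% and 55.6% of all genes called higher and all-gene medians of 0.65 and 0.68. Their part in the levels of Tnfaip2 and Zfp36 was not tested. That none of the 10 genes is in this list does not mean that dissociation leaves them unchanged.

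Other genes of the system that were called in neutrophil-like cells were mostly higher at 5 dpw, as were 53.8% of all genes in Angptl4+/+ and 55.6% in Angptl4-/- wounds, and the counts of the lists are to be read against these shares. Of 20 kinase and adapter genes tested, 12 were called higher and 0 lower at 5 dpw in each genotype, with a median log2 ratio of 0.71 in Angptl4+/+ and 0.73 in Angptl4-/- wounds. Irak1, a kinase below the IL-1 and Toll-like receptors, had ratios of 1.88 and 1.80. Rela, the subunit gene outside the 10, was at 56.6 and 89.9 CPM in Angptl4+/+ wounds, a ratio of 0.67, and at 58.0 and 95.2 CPM in Angptl4-/- wounds, a ratio of 0.71. Among 14 other negative regulators, 5 were called higher in Angptl4+/+ and 7 in Angptl4-/- wounds and 0 lower, with medians of 0.30 and 0.49. Of 6 receptor genes 1 was called higher in each genotype, the lymphotoxin beta receptor gene Ltbr with 0.87 and 0.75. Of 22 induced target genes, 5 were called higher and 2 lower in Angptl4+/+ wounds (median 0.10), and 6 higher and 2 lower in Angptl4-/- wounds (median -0.03). Ccl2, a chemokine for monocytes, had the largest ratios of these, 2.91 and 3.00, from levels of 8.44 and 4.75 CPM at 1 dpw, and Ptgs2, the gene of cyclooxygenase-2, was at 1013 and 2612 CPM in Angptl4+/+ wounds. Csf3 and Tnf were lower at 5 dpw in Angptl4-/- wounds, with -1.40 and -1.11.

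Between the genotypes, none of the 10 genes was 1.5-fold apart in neutrophil-like cells on either day. At 1 dpw 0 of the 10 were called higher in Angptl4-/- wounds, where 0.959% of 6465 genes were, and 0 lower, where 3.76% were. At 5 dpw 0 were called higher, where 1.84% of 6697 genes were, and 0 lower, where 3.54% were. The median ratio of all genes was -0.09 at 1 dpw and -0.07 at 5 dpw. In the Angptl4-/- library at 5 dpw 5 erythroid genes summed to 1316 CPM in neutrophil-like cells, against 0.254 to 3.71 CPM in the other 3 libraries, and their part in the 5 dpw ratios was not tested. Smaller differences went beyond the counting interval on both days. Nfkb1 was higher in Angptl4-/- wounds, by a log2 ratio of 0.21 [0.14, 0.28] at 1 dpw and 0.21 [0.10, 0.32] at 5 dpw. Rel was lower, with -0.22 [-0.29, -0.15] and -0.19 [-0.29, -0.09]. Nfkbia, Nfkbie, Tnfaip3 and Zfp36 were lower too. Nfkbia had ratios of -0.27 [-0.28, -0.25] and -0.21 [-0.23, -0.18], Nfkbie -0.31 [-0.40, -0.22] and -0.19 [-0.32, -0.06], Tnfaip3 -0.20 [-0.26, -0.15] and -0.31 [-0.38, -0.23], and Zfp36 -0.22 [-0.25, -0.19] and -0.34 [-0.37, -0.31]. For Nfkb2, Relb and Tnfaip2 the ratios were between -0.06 and 0.10 on both days. With 1 library per group, such differences cannot be told apart from differences between libraries.

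Within the neutrophil-like clusters the ratio of Tnfaip3 between the genotypes was below 0 in 6 of 6 clusters on both days, from -0.46 to -0.03 at 1 dpw and from -0.51 to -0.12 at 5 dpw, and 4 of the 6 were beyond the interval each day. Zfp36 was below 0 in 5 of 6 clusters at 1 dpw and in 6 of 6 at 5 dpw. Nfkb1 did not keep one sign, since over the 5 clusters with enough UMIs it ran from -0.24 in the Nlrp12 and Ly6g cluster, with 114 and 96.1 CPM, to 0.61 in the Csf1 cluster, with 144 and 219 CPM, at 1 dpw. The 22 induced target genes tested gave 2 called higher and 1 lower at 1 dpw (Csf3 0.64, Marcksl1 0.59 and Ccl2 -0.83) and 0 higher and 3 lower at 5 dpw (Cxcl1 -0.91, Ccl2 -0.74 and Gadd45b -0.61), with medians of -0.07 and -0.03. None of the 20 kinase and adapter genes, 6 receptor genes, 14 other negative regulators and 4 other subunit and IkB genes was called on either day.

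**Figure D3:**
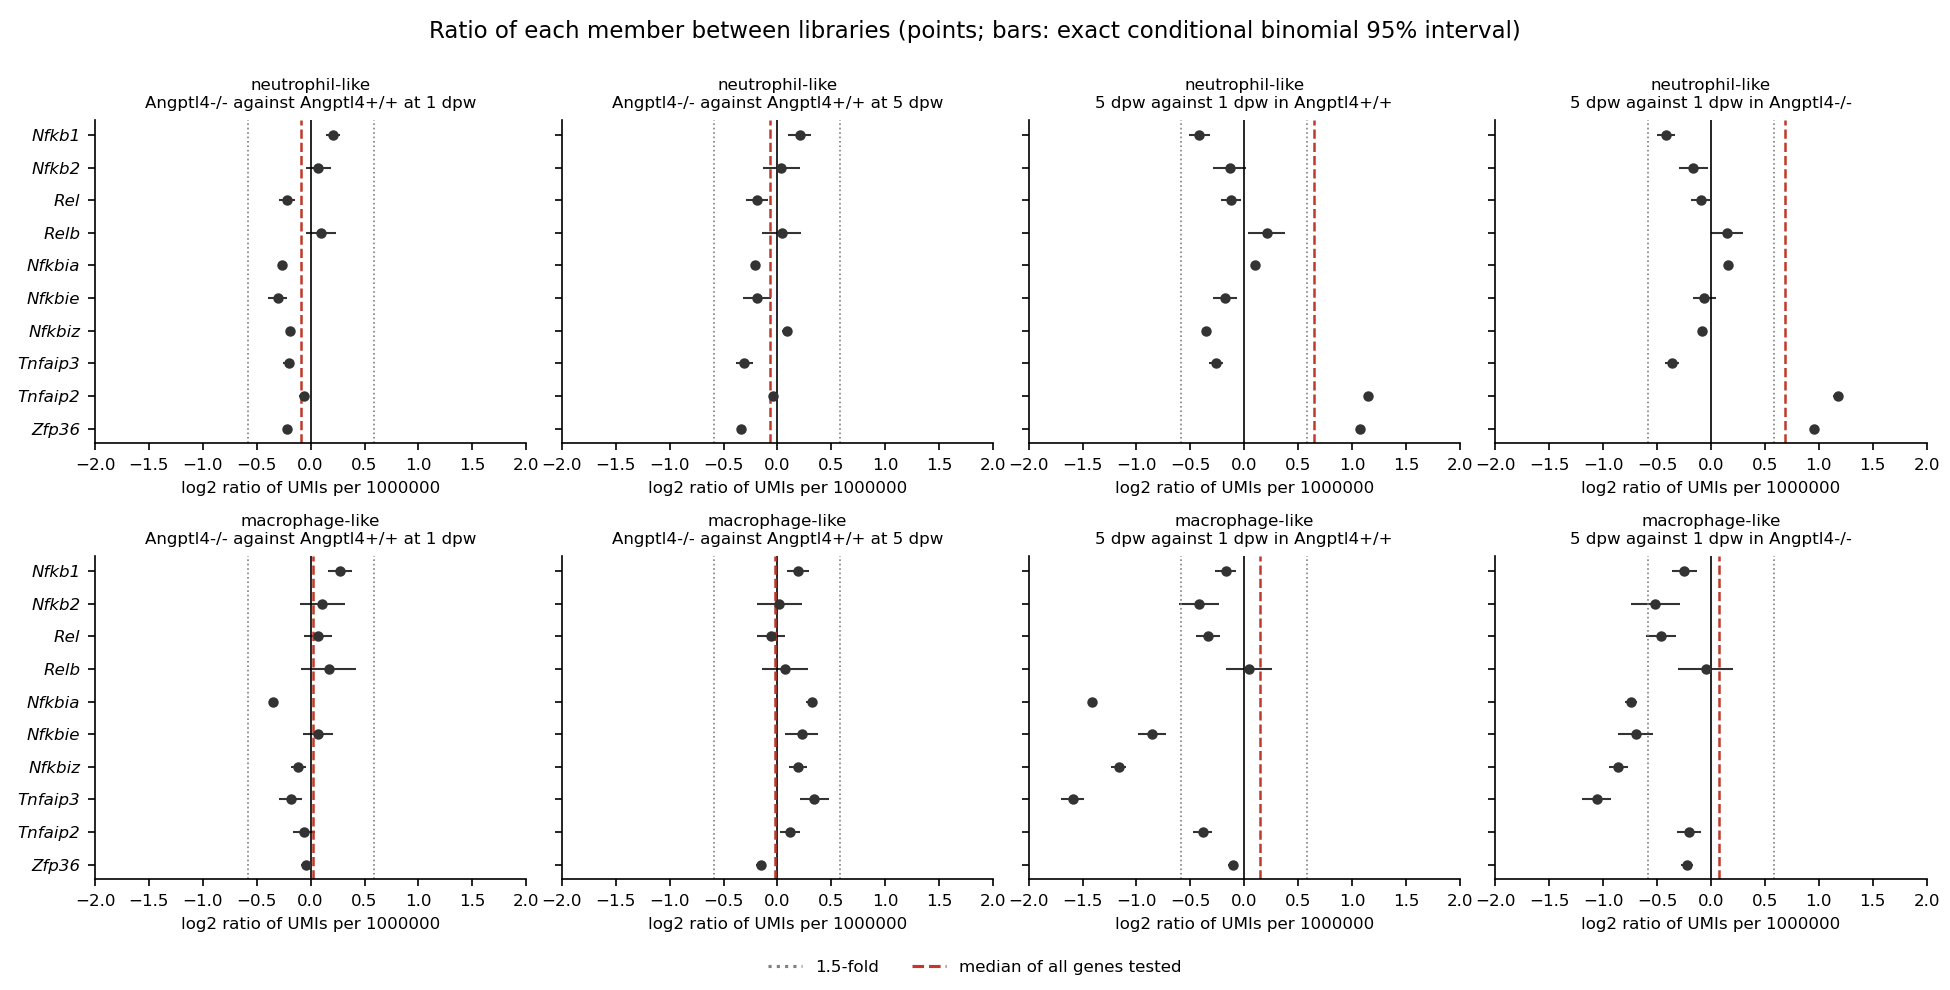
Log2 ratio of the level of each of the 10 genes in neutrophil-like and macrophage-like cells for 2 comparisons between genotypes and 2 between days, with a 95% counting interval as the bar the median of all tested genes as a dashed line and 1.5-fold as dotted lines. Nfkbia, Nfkbie, Nfkbiz and Tnfaip3 lie past the lower 1.5-fold line in both comparisons between days in macrophage-like cells. No gene lies past 1.5-fold between the genotypes.

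In macrophage-like cells the IkB genes and Tnfaip3 were lower at 5 than at 1 dpw. Nfkbia was at 1464 CPM [1439, 1489] and 552 CPM [539, 565] in Angptl4+/+ wounds, a log2 ratio of -1.41 [-1.45, -1.37]. In Angptl4-/- wounds it was at 1152 CPM [1124, 1179] and 688 CPM [669, 707], a ratio of -0.74 [-0.80, -0.69]. Both 1 dpw libraries were above both 5 dpw libraries. Tnfaip3 was at 238, 79.1, 209.6 and 100.4 CPM, and its ratio was -1.59 [-1.70, -1.48] in Angptl4+/+ and -1.06 [-1.19, -0.93] in Angptl4-/- wounds. Nfkbiz, at 473, 211, 437 and 241 CPM, had ratios of -1.17 [-1.23, -1.10] and -0.86 [-0.95, -0.77]. Nfkbie, at 120.4, 66.5, 126 and 77.6 CPM, had ratios of -0.86 [-0.99, -0.73] and -0.70 [-0.86, -0.54]. For each of these genes the 1 dpw and 5 dpw libraries did not overlap, and such separation was not counted over all genes. In thinned cells a UMI of Nfkbia was seen in 61.8%, 35.5%, 58.5% and 38.8% of macrophage-like cells (91.2%, 76.2%, 86.8% and 83.6% without thinning), and one of Tnfaip3 in 21.0%, 7.9%, 18.9% and 10.8% (60.0%, 35.2%, 49.1% and 48.2% without thinning).

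In Angptl4+/+ wounds 4 of the 10 genes were called lower at 5 dpw, where 9.56% of 8856 genes were, and 0 higher, where 19.7% were. In Angptl4-/- wounds 4 were called lower, where 10.2% of 7903 genes were, and 0 higher, where 14.6% were. The median ratio of all genes was 0.15 in Angptl4+/+ and 0.07 in Angptl4-/- wounds, and relative to it the ratios of Nfkbia were -1.56 and -0.81 and those of Tnfaip3 -1.74 and -1.13. The subunit genes moved less than their inhibitors. Nfkb2 had ratios of -0.42 [-0.61, -0.24] and -0.52 [-0.75, -0.29], Rel -0.34 [-0.45, -0.23] and -0.46 [-0.61, -0.32], and Nfkb1 -0.17 [-0.27, -0.07] and -0.25 [-0.37, -0.13], while the interval of Relb held 0 in both genotypes. Tnfaip2 had -0.39 and -0.21, and Zfp36 had -0.11 and -0.22, in contrast to their values in neutrophil-like cells. The summed dissociation genes were at 13254, 11640, 13877 and 10706 CPM in macrophage-like cells, with 1 of 14 called higher and 1 lower in Angptl4+/+ and 0 higher and 1 lower in Angptl4-/- wounds.

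Neutrophil RNA was present in macrophage-like cells and was also less abundant at 5 dpw. The 12 neutrophil markers summed to 14509, 2481, 12930 and 2724 CPM there, which is 7.05%, 2.18%, 5.81% and 2.37% of their sum in the neutrophil-like cells of the same library. When this share of each neutrophil-like level was subtracted, an alternative chosen after seeing the data, Nfkbia was at 1348, 492.5, 1069 and 637 CPM and Tnfaip3 at 230.1, 74.4, 204 and 97.1 CPM. The ratios of Nfkbia between the days were then -1.45 and -0.75, and those of Tnfaip3 -1.63 and -1.07. The subtraction takes every neutrophil marker UMI in macrophage-like cells as carried over with the profile of the neutrophil-like cells.

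Macrophage-like cells held 3 clusters, led by Ptges, Cav1 and Arg1 (1604 cells), by Ccl12, Ms4a7 and C1qa (1384 cells) and by Tppp3, Ltc4s and Fn1 (1228 cells). The Arg1 cluster, whose share of the class was 51.1%, 29.9%, 42.6% and 28.5%, had the most Nfkbia in every library, with 1711, 905, 1576 and 1277 CPM. The C1qa cluster had 1108, 349, 784 and 500.3 CPM, and the Fn1 cluster 1482, 521, 1029.6 and 529.5 CPM. Nfkbia was lower at 5 dpw within each cluster. In Angptl4+/+ wounds the ratios of Nfkbia were -0.92, -1.67 and -1.51 in the Arg1, C1qa and Fn1 clusters, and in Angptl4-/- wounds they were -0.30, -0.65 and -0.96. Nfkbiz was lower in all 3 clusters as well, with -1.41, -0.79 and -1.09 in Angptl4+/+ wounds, while Angptl4-/- wounds had -1.20, -0.61 and -0.48. Tnfaip3 had -1.39, -1.52 and -1.47 in Angptl4+/+ wounds. In Angptl4-/- wounds it was at 311 and 156 CPM in the Arg1 cluster and at 137 and 70.2 CPM in the C1qa cluster, but the Fn1 cluster had 118 and 113 CPM, a ratio of -0.06 [-0.44, 0.34]. Nfkbie in that cluster had 0.42 [-0.16, 1.04], so 2 of the 4 genes lacked the difference there. When every cluster was counted the same, which was also chosen after seeing the data, Nfkbia and Nfkbie were at -0.56 and -0.39 in Angptl4-/- wounds and no longer past 1.5-fold. The macrophage-like clusters too were made after integration. Without it, a macrophage-like cluster led by Pdpn and Sdc1 held 1063, 398, 774 and 234 cells. The other, led by Lpl and C1qa, held 92, 1153, 79 and 397 cells. The part of this in the day ratios within clusters was not tested.

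**Figure D4:**
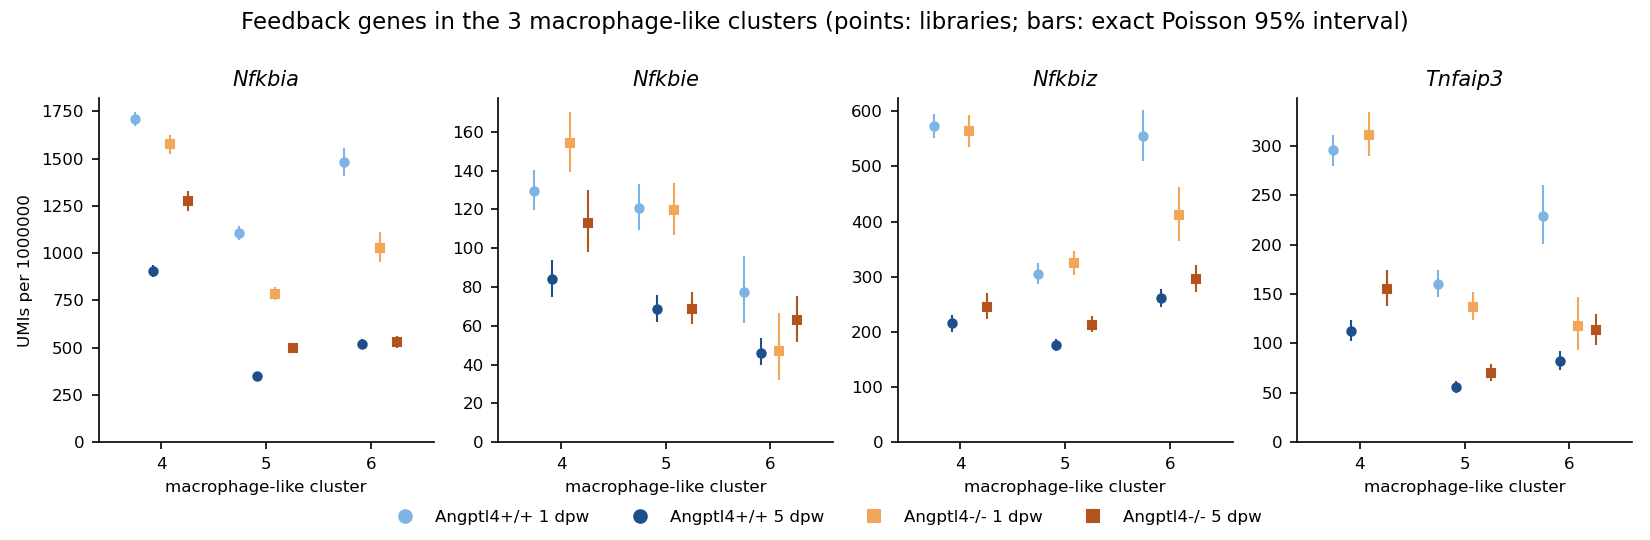
Level of Nfkbia, Nfkbie, Nfkbiz and Tnfaip3 (UMIs per 1000000, linear axis from 0) in the 3 clusters of macrophage-like cells, led by Arg1 (4), C1qa (5) and Fn1 (6), with 1 point per library and a 95% counting interval as the bar. Nfkbia is highest in the Arg1 cluster in every library, Nfkbia and Nfkbiz lie lower at 5 than at 1 dpw in each cluster, and in the Fn1 cluster of Angptl4-/- wounds the intervals of both days overlap for Tnfaip3 and Nfkbie.

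Genes that NF-kB is known to induce were mostly lower at 5 dpw in macrophage-like cells. The counts of the lists are to be read against 19.7% of all genes called higher and 9.56% called lower in Angptl4+/+ wounds. In Angptl4-/- wounds these shares were 14.6% and 10.2%. Of 23 induced target genes tested, 15 were called lower and 1 higher in Angptl4+/+ wounds (median log2 ratio -1.15), and 16 lower and 1 higher in Angptl4-/- wounds (median -0.90). The neutrophil chemokine genes Cxcl3 and Cxcl2 were at 1782 and 9958 CPM at 1 dpw and at 166 and 1871 CPM at 5 dpw in Angptl4+/+ wounds, ratios of -3.42 and -2.41. In Angptl4-/- wounds Cxcl1 had -2.32, Il1a -2.05 and Cxcl3 -1.77, while Il6 was higher at 2.83 [1.93, 3.88] from 1.89 to 13.5 CPM. Mast cell and basophil markers in these Angptl4-/- cells summed to 0 CPM at 1 dpw and 253 CPM at 5 dpw. Their part in the Il6 ratio was not tested. Of 15 other negative regulators, 5 were called lower and 1 higher in Angptl4+/+ and 6 lower and 1 higher in Angptl4-/- wounds, with medians of -0.32 and -0.38. Tnip3, whose product binds A20, was the gene called higher, with 59.2 and 145 CPM in Angptl4+/+ and 54.9 and 176 CPM in Angptl4-/- wounds, and Traf1 was the lowest of the list in Angptl4+/+ wounds at -1.32. The kinase and adapter genes did not share this direction: of 21, 3 were called higher and 1 lower in Angptl4+/+ (median 0.08) and 1 higher and 3 lower in Angptl4-/- wounds (median -0.09). Map3k14, the kinase of the alternative pathway, was at 21.5 and 54.2 CPM in Angptl4+/+ and 23.1 and 36.7 CPM in Angptl4-/- wounds. Of 8 receptor genes, 1 was called higher and 2 lower in each genotype, and Cd40 had 1.13 and 0.77 and Il1rap -1.04 and -0.92. None of the 4 other subunit and IkB genes was called (medians -0.21 and -0.33).

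Between the genotypes, no gene of the 10 was 1.5-fold apart in macrophage-like cells. At 1 dpw 0 were called higher in Angptl4-/- wounds, where 1.97% of 7835 genes were, and 0 lower, where 1.99% were. At 5 dpw 0 were called higher, where 1.83% of 8855 genes were, and 0 lower, where 3.25% were. The median ratios of all genes were 0.02 and -0.02. Nfkbia was lower in Angptl4-/- wounds at 1 dpw, with -0.35 [-0.39, -0.30], and higher at 5 dpw, with 0.32 [0.27, 0.37]. Tnfaip3 had -0.19 [-0.29, -0.08] and 0.34 [0.21, 0.48], and Nfkbiz -0.11 [-0.19, -0.04] and 0.19 [0.10, 0.28]. These 3 genes thus had opposite signs on the 2 days, beyond counting error on each. The share of all genes with such a change of sign was not counted. At 1 dpw the sign did not hold within the clusters for 2 of these 3 genes. In the Arg1, C1qa and Fn1 clusters Tnfaip3 had 0.08, -0.22 and -0.96 and Nfkbiz -0.02, 0.09 and -0.43, while Nfkbia had -0.12, -0.50 and -0.53. Within the clusters at 5 dpw the ratio of Tnfaip3 was 0.33 to 0.46 and above 0 beyond the interval in 3 of 3, and that of Nfkbia was 0.50, 0.52 and 0.02 in the Arg1, C1qa and Fn1 clusters. Nfkb1 was higher in Angptl4-/- wounds on both days, at 0.27 [0.16, 0.38] and 0.19 [0.09, 0.30]. Of 23 induced targets, 1 was called higher at 1 dpw (Marcksl1, 1.08), and 3 higher and 1 lower at 5 dpw (Cxcl3 1.31, Cxcl2 0.67, Il1a 0.62 and Olr1 -0.67). None of the kinase and adapter, receptor, other negative regulator and other subunit genes tested was called on either day. Mast cell and basophil markers in these cells summed to 48.3 CPM in Angptl4+/+ and 253 CPM in Angptl4-/- wounds at 5 dpw and to 0 at 1 dpw, and their part in the result was not tested.

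Dendritic cell-like cells were divided at the finer resolution into a cluster led by Cd209a (459 cells) and one led by Fscn1, Cacnb3 and Ccl22, genes of mature dendritic cells (273 cells). All 4 subunit genes and Nfkbia were higher in the Fscn1 cluster, beyond the intervals in 4 of 4 libraries. It was not counted what share of all genes differed between these clusters in this way. Relb was at 136, 100.4, 92.4 and 108 CPM in the Cd209a cluster and at 632, 780.1, 694 and 809.6 CPM in the Fscn1 cluster. Its log2 ratio was 2.22, 2.96, 2.91 and 2.91, and every Fscn1 value was above every Cd209a value. Nfkb2, whose product pairs with RelB, had ratios of 1.36 to 1.94, Rel of 0.96 to 1.36, Nfkb1 of 0.38 to 1.13 and Nfkbia of 0.73 to 1.01. Nfkbie and Nfkbiz did not share the direction, with ratios of -0.59 to 0.11 and -0.57 to -0.15. Fscn1, Ccl22, Ccr7 and Cacnb3 are also among the markers that named the class, but none of the 10 genes entered the clustering.

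**Figure D5:**
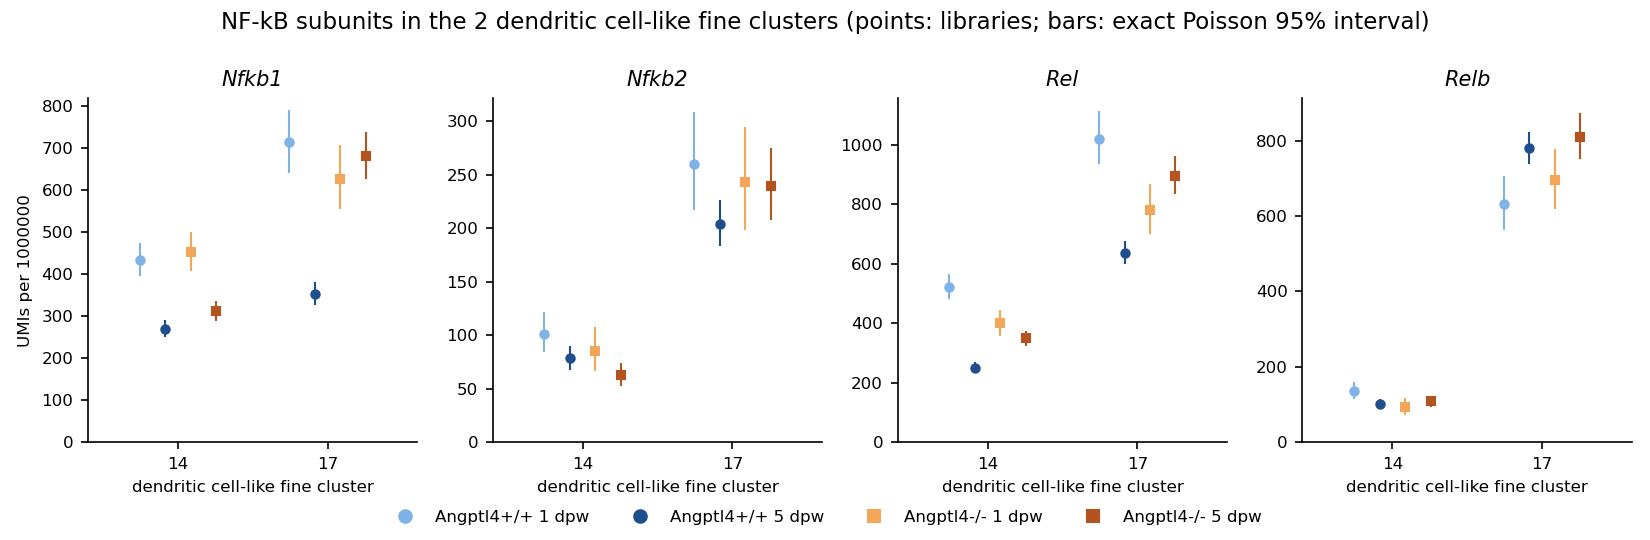
Level of the 4 subunit genes (UMIs per 1000000, linear axis from 0) in the Cd209a cluster (14) and the Fscn1 cluster (17) of dendritic cell-like cells, with 1 point per library and a 95% counting interval as the bar. Relb and Nfkb2 are higher in the Fscn1 cluster in all 4 libraries, by log2 ratios of 2.22 to 2.96 and 1.36 to 1.94.

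In the smaller classes the ratios carry wider intervals. In dendritic cell-like cells the 5 to 1 dpw ratios of Nfkbiz were -1.18 [-1.42, -0.93] in Angptl4+/+ and -0.97 [-1.23, -0.70] in Angptl4-/- wounds, those of Tnfaip3 -1.01 and -0.80, of Tnfaip2 -1.05 and -0.77 and of Nfkbia -0.86 and -0.61. All genes had a median of -0.12 in both genotypes there. Among the subunits, Nfkb1 had -0.78 [-0.90, -0.65] and -0.34 [-0.48, -0.19], Rel -0.71 [-0.82, -0.60] and -0.13 [-0.26, 0.01], and Relb had 0.42 [0.27, 0.57] in Angptl4+/+ wounds, and -0.01 [-0.19, 0.16] without Angptl4. Within the clusters of Angptl4+/+ wounds, Relb was lower at 5 dpw in the Cd209a cluster and higher in the Fscn1 cluster. The Fscn1 cluster held 37 and 137 Angptl4+/+ cells at 1 and 5 dpw, and the Cd209a cluster 75 and 184. The part of these cell numbers in the day ratio was not tested. At 5 dpw Angptl4-/- dendritic cell-like cells as a class had more Nfkb1 than Angptl4+/+ cells, 0.45 [0.34, 0.57], and less Relb, -0.33 [-0.45, -0.21]. Within the Cd209a and Fscn1 clusters, whose Relb levels are given above, Relb was not lower in Angptl4-/- wounds at 5 dpw. Neutrophil markers in dendritic cell-like cells were at 2.36%, 0.833%, 1.48% and 0.936% of their neutrophil-like sum, and after subtraction of that share Nfkbiz was at 141, 66.0, 171 and 85.5 CPM and Nfkbia at 1071, 593, 893 and 581 CPM. The Fscn1 cluster held 67 Angptl4-/- and 137 Angptl4+/+ cells at 5 dpw and the Cd209a cluster 141 and 184, and the part of this makeup in the difference was not tested. NK cell/T cell-like cells had 5 to 1 dpw ratios of -1.84 [-2.13, -1.55] and -1.26 [-1.57, -0.93] for Tnfaip3, of -1.58 and -1.08 for Nfkbia, of -1.69 and -1.82 for Nfkbiz and of -1.23 and -1.21 for Zfp36, beside a median of all genes of 0.01 and 0.00. The neutrophil markers in these cells stood at 10.1%, 2.74%, 7.77% and 2.26% of their neutrophil-like sum. After subtraction of that share Nfkbia was at 1004, 322, 559.8 and 279.7 CPM, Nfkbiz at 262, 86.7, 256 and 68.8 CPM and Tnfaip3 at 521, 136, 372 and 152 CPM, each still lower in the 5 dpw library of its genotype. For Tnfaip2 in these cells the same subtraction gave -15.2, -9.18, 15.8 and -1.72 CPM. A level below 0 is not possible, so the subtraction took away too much of that gene.

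In monocyte-like cells the day ratios past 1.5-fold were those of Nfkbiz, 0.59, and Tnfaip3, -1.22 [-1.79, -0.68], both in Angptl4-/- wounds. The 5 to 1 dpw ratio of Nfkbiz was 0.57 [0.37, 0.77] in Angptl4+/+ and 0.59 [0.38, 0.80] in Angptl4-/- wounds, that of Rel 0.40 and 0.38 and that of Nfkbia 0.47 and 0.16. Tnfaip3 had 65.6, 63.0, 62.0 and 26.6 CPM, so the Angptl4-/- library at 5 dpw was the low one, with 38 UMIs. Its ratio between the genotypes at 5 dpw was -1.24 [-1.84, -0.67]. Nfkbie was also past 1.5-fold lower in Angptl4-/- cells, at -0.61, from 96 UMIs in Angptl4+/+ and 68 in Angptl4-/- cells. The ratio of Nfkbia, under 1.5-fold, was -0.51 [-0.65, -0.37]. All genes had a median of 0.02 there, and their share past 1.5-fold was not counted in this class. The neutrophil markers of monocyte-like cells were at 6.57%, 10.4%, 4.08% and 6.74% of their neutrophil-like sum, highest in the Angptl4+/+ library at 5 dpw. After subtraction of that share, as for macrophage-like cells, Nfkbia was at 352, 437, 369 and 346 CPM. Its level in Angptl4-/- cells was then no longer higher at 5 dpw than at 1 dpw. Nfkbiz was at 126, 216, 154 and 235 CPM, and Tnfaip3 at 45.6, 36.5, 51.7 and 11.5 CPM. Set against macrophage-like cells of the same library, Tnfaip3 of monocyte-like cells was lower in all 4 libraries, with log2 ratios of macrophage-like to monocyte-like cells of 1.86, 0.33, 1.76 and 1.92.

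Across 48 points, each a cluster in a library with at least 30 cells, the 10 genes did not form a single pattern. Of their 45 pairs, 35 had a positive Pearson correlation on the scale of log2(CPM + 10), with a median of 0.36. Nfkbia went closest with Nfkbiz (0.90), Tnfaip2 with Zfp36 (0.89), Nfkb2 with Relb (0.88) and Rel with Relb (0.87), and the lowest was -0.51 between Nfkb1 and Tnfaip2. The points share libraries and depth and are not independent, so these values are a description. Among 8723 genes with at least 500 UMIs, those outside the 10 that were most like the mean of the 10 were Nfat5 (0.88), Birc3 (0.87), Cflar (0.87), Marcksl1 (0.86) and Pfkfb3 (0.85). Nfkbiz was most like Nlrp3 and Cxcl2 (both 0.97), Nfkbia most like Maff (0.96), Tnfaip2 most like Lilra6 (0.94), Tnfaip3 most like Slc9a3r1 (0.91), Zfp36 most like C5ar2 (0.89), Relb most like Sema7a (0.87), Nfkb2 most like Nfkbib (0.86), Rel most like Tbc1d8 (0.84), Nfkbie most like Rnf19b (0.81) and Nfkb1 most like Phlpp2 (0.71).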

How the data were processed

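Droplet libraries (10x Genomics Chromium 3' V3) were made from sorted live CD45+ cells of collagenase-dissociated wounds, 1 library per genotype and day. The authors deposited counts of UMIs per gene and barcode, and per the submitters' processing notes used Cell Ranger 3.1.0, Seurat 3.0 and the mm10 build. Here the counts were used as deposited. Barcodes with at least 200 genes and at most 10% mitochondrial UMIs were kept. Cells were integrated with Seurat 5.3.0 in R 4.3.3 (2000 variable genes, 30 dimensions, resolution 0.5, and 1.0 for finer clusters), and clusters were named from marker lists. The 10 genes, the genes of the pathway lists and the dissociation genes were kept out of the variable genes. Doublets were scored with Scrublet and kept in the main values; its automatic threshold marked almost no cells, so the top-scoring cells, 0.8% per 1000 cells, were taken as doublets in the alternative that left them out. UMIs were summed per class and library to CPM with an exact Poisson 95% interval, and log2 ratios had an exact conditional binomial 95% interval, both covering counting error only, computed with Python 3.11.15 and scipy 1.17.1. A gene was called from 100 UMIs over both libraries and a 1.5-fold ratio. The steps were tested on simulated data. With 1 library per group there was no test, and no p-value was computed. Shares were also given in cells thinned to 1000 UMIs, which left out 98, 157, 86 and 101 shallower cells. Clusters of the finer resolution, the named genes and the Cxcr2 subsets (k-means on the integrated components) served for description. The named genes were all 10 members and genes of fixed pathway lists. Those of a list had the largest absolute ratios among its genes with at least 100 UMIs over both libraries, called or not. The 10 genes and all lists were chosen with earlier results of these data known. Gene positions are from GENCODE vM21 (GRCm38). The genes of the pathway lists numbered 4 other subunit and IkB genes, 21 kinases and adapters, 10 receptors, 15 other negative regulators and 25 induced targets, and only those with enough UMIs were tested.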

Additional observations from a re-analysis of the deposited data

Results flagged for a closer look

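In 4 cases the ratio of Angptl4-/- to Angptl4+/+ had opposite signs at 1 and 5 dpw with a counting interval that left out 0 on both days. How many of all genes tested did the same was not counted. The difference between the days was not tested, because each group was 1 library. In macrophage-like cells the ratio of Nfkbia was -0.35 at 1 dpw and 0.32 at 5 dpw, a difference of 0.66 on the log2 scale. Tnfaip3 in the same cells had -0.19 and 0.34, a difference of 0.53. Nfkbiz had -0.11 and 0.19 in macrophage-like cells, a difference of 0.30, and -0.19 and 0.08 in neutrophil-like cells, a difference of 0.27. Within the 3 macrophage-like clusters at 1 dpw the ratio of Tnfaip3 was above 0 in 1, at 0.08, and that of Nfkbiz in 1, at 0.09.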

How the results depend on the processing

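The counts of called genes were recomputed under 10 alternatives planned at the start and 2 added after seeing the data. Of 184 recomputed counts 177 stayed within 1.5 times the main count. Of 914 recomputed ratios of the 10 genes, 736 stayed inside the counting interval and 178 moved outside it. None changed sign while called. Between the genotypes no ratio was called in neutrophil-like or macrophage-like cells, so this check could not fail for those ratios. Centring on the median of all genes turned the neutrophil-like comparison of days from 2 higher and 0 lower to 0 higher and 6 lower in Angptl4+/+ and equally to 0 and 6 in Angptl4-/- wounds, since all genes shifted by 0.65 and 0.68. The share of all genes past the centred cut was not counted. In the same comparison 1 gene, Nfkb1, was called lower in Angptl4+/+ wounds with each cluster counted the same, and 1, again Nfkb1, in Angptl4-/- wounds in thinned cells. In Angptl4-/- macrophage-like cells 2 in place of 4 genes were called lower at 5 dpw with each cluster counted the same, and the cause was not tested. Between the genotypes the count was 0 in both classes under each alternative run. No paired analysis was possible because each group had 1 library. The interval of a ratio covers counting error only, so the spread between mice remains unknown.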
